A study of Mus musculus with 6 samples.

Results

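The cAMP-dependent protein kinase (PKA) genes described here were 10 of the 33696 genes counted, picked by their symbols. They were the catalytic subunits *Prkaca* (ENSMUSG00000005469) and *Prkacb* (ENSMUSG00000005034), the regulatory subunits *Prkar1a* (ENSMUSG00000020612), *Prkar1b* (ENSMUSG00000025855), *Prkar2a* (ENSMUSG00000032601) and *Prkar2b* (ENSMUSG00000002997), the kinase inhibitors *Pkia* (ENSMUSG00000027499) and *Pkig* (ENSMUSG00000035268), and the anchoring proteins *Akap12* (ENSMUSG00000038587) and *Akap13* (ENSMUSG00000066406). All 10 were counted in each of the 6 libraries.

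Cells came from the Achilles tendon of *Gli1*-CreERT2; Ai9 mice, all induced with tamoxifen, in which Cre activity turns on a red reporter in cells with *Gli1* promoter activity at induction and in their progeny. The tendons were uninjured or had been cut by tenotomy 7 or 21 days before (dpi, days post injury), and cells were sorted by FACS into reporter-positive (*Gli1*+) and reporter-negative (*Gli1*-) fractions. The sort thus marks a lineage and not present *Gli1* transcription. The labels give 8 mice per time point, 24 in all, with equal numbers of each sex, pooled with no map from cells to mice, and each condition was 1 library, so no test between conditions was made. Both sorts of a time point came, by the labels, from the same mice, so that a like result in both sorts is not a repeat in other animals. Levels are UMIs (molecules counted from the 3′ end) per 1000000 UMIs of a group of cells (CPM), and are not divided by transcript length because each molecule is counted at its end. The 95% intervals cover counting error only. Whether UMIs within introns were counted was not checked, so levels of different genes may not be on the same scale.

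PKA is held inactive as a tetramer of a regulatory dimer and a pair of catalytic subunits, and cAMP, which forms when Gs-coupled receptors activate adenylyl cyclase, binds the regulatory subunits and frees the catalytic ones. Type I holoenzymes carry RIα or RIβ and are largely cytosolic, whereas type II holoenzymes carry RIIα or RIIβ and are mostly held at membranes and the cytoskeleton by A-kinase anchoring proteins (AKAPs). In the Hedgehog pathway, which *Gli1* reports, PKA phosphorylates Gli factors and favours their repressor forms, and in bone and cartilage the kinase lies downstream of parathyroid hormone receptors and Gsα.

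Cells were grouped by joint clustering of all libraries and named by their likeness to marker lists, and "like" is left out of the names of the major classes. Kept cells numbered 7057 to 10882 per library with 53589094 to 107755024 UMIs. Mesenchymal cells, in which all 7 listed markers were found, numbered 2465, 7051 and 8046 (*Gli1*+) and 5813, 8020 and 7574 (*Gli1*-), given as uninjured, 7 dpi and 21 dpi here and throughout. Lymphoid (3193) and myeloid (400) cells were present in number only in the uninjured *Gli1*+ library. Other libraries held at most 2 cells of either class. Cells with *Xist* and no Y-linked UMIs made up 68.8%, 0.01% and 92.7% (*Gli1*+) and 0%, 0.01% and 90.6% (*Gli1*-) of kept cells, which goes against equal sexes per library. *Cntn5*, a neuronal adhesion gene, stood at 1.80, 173 and 0.560 CPM and at 654, 206 and 0.388 CPM. Sex and this difference therefore cannot be told apart from injury in some contrasts. Values of the members in mesenchymal cells were also computed in cells of matching *Xist* state. Those of other cell classes and of other pathway genes were not. The uninjured *Gli1*+ and *Gli1*- libraries, labelled as fractions of the same mice, differed in both measures. *Gli1* itself was at 6.62, 2.15 and 4.12 CPM (*Gli1*+) and at 7.52, 2.55 and 3.93 CPM (*Gli1*-) over all kept cells. Whether a library carries a wrong label was not tested, and every ratio over uninjured tendon and the ratio between the uninjured sorts rest on these labels. The 7 epidermal keratin and junction markers summed to 2283 CPM in *Gli1*+ mesenchymal cells of 7 dpi and to 14.9 to 211 CPM in those of the other libraries, and to 4667 and 4335 CPM in mural and blood endothelial cells of that library. Their part in the *Gli1*+ values of 7 dpi was not tested. The *Gli1*- contrast at 7 dpi, with 14.9 CPM (uninjured) and 35.0 CPM in mesenchymal cells, stands beside the *Gli1*+ contrasts of whole mesenchymal, mural and blood endothelial cells. Some *Gli1*+ values of 7 dpi, such as those of epidermal cells and of some single clusters, have no *Gli1*- counterpart. The libraries shared 27 to 75 barcodes in each pair.

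In mesenchymal cells *Prkacb*, which encodes Cβ, was the main catalytic transcript in all 6 libraries. Its level was 51.2, 49.8 and 47.2 CPM (*Gli1*+) and 51.6, 55.5 and 50.5 CPM (*Gli1*-). *Prkaca*, which encodes the broadly expressed Cα, stood at 22.2, 20.4 and 20.5 CPM and at 19.5, 23.4 and 21.5 CPM. Both genes kept within a narrow range, and *Prkaca* made up 27.4% (25.7 to 29.2) to 30.3% (29.0 to 31.5) of catalytic UMIs in every library, with no order by time or sort.

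Among regulatory transcripts *Prkar1a*, which encodes the ubiquitous RIα, was the most abundant in every library, at 101, 135 and 125 CPM (*Gli1*+) and 124, 137 and 136 CPM (*Gli1*-). *Prkar2a*, which encodes RIIα, came next at 38.8, 29.6 and 28.3 CPM and at 42.8, 29.4 and 29.9 CPM. Here the 2 uninjured libraries were the highest and the 4 injured libraries lay between 28.3 and 29.9 CPM, with intervals that did not reach the uninjured ones. Another scaling (TMM, given below) left little of this difference in *Gli1*+ cells. *Prkar1b*, for the mainly neural RIβ, was at 10.3, 3.83 and 3.91 CPM (*Gli1*+) and at 2.96, 3.23 and 4.10 CPM (*Gli1*-), so that the uninjured *Gli1*+ library alone was high. *Prkar2b*, for RIIβ of fat and brain, was also scarce, at 1.92, 4.02 and 2.72 CPM and at 1.89, 4.72 and 3.11 CPM. Its order was the same in both sorts, lowest in uninjured tendon and highest at 7 dpi, and the intervals of the uninjured and 7 dpi libraries did not overlap.

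Type I subunits took 73.2% and 73.9% of regulatory UMIs in the uninjured *Gli1*+ and *Gli1*- mesenchymal cells and 80.4% to 80.9% in the 4 injured libraries. The share of *Prkar2a* was 25.5% and 25.0% in uninjured tendon and 16.8% to 17.7% after injury. There were 2.07 (1.95 to 2.19) regulatory UMIs per catalytic UMI in the uninjured *Gli1*+ library and 2.21 to 2.45 in the others, an order that followed neither time nor sort.

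The inhibitors of the PKI family bind free catalytic subunits as pseudosubstrates and carry them out of the nucleus. *Pkig* was the main member, at 60.6, 88.9 and 78 CPM (*Gli1*+) and 70.4, 85.8 and 78.4 CPM (*Gli1*-). *Pkia* was at 27.5, 12.6 and 9.79 CPM and at 40.5, 13.4 and 10.9 CPM. The 2 genes were ordered in opposite ways, with *Pkig* lowest and *Pkia* highest in uninjured tendon of both sorts, and the share of *Pkia* among the UMIs of both genes was 31.3% and 36.5% in uninjured tendon against 11.1% to 13.5% after injury.

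*Akap13*, which encodes a large anchor that is also an exchange factor for RhoA, was the most abundant member in mesenchymal cells of every library, at 566, 459.6 and 407 CPM (*Gli1*+) and 617, 445 and 404 CPM (*Gli1*-). *Akap12*, which encodes gravin, a membrane scaffold for PKA, protein kinase C and β-adrenergic receptors, was at 237 (231 to 243), 49.2 (47.6 to 50.9) and 32.8 (31.6 to 34.1) CPM and at 245 (240.3 to 250.4), 54.3 (52.9 to 55.8) and 37.5 (36.2 to 38.9) CPM. Both uninjured libraries were high, the 7 dpi libraries low and the 21 dpi libraries lower still, in either sort.

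**Figure D1:**
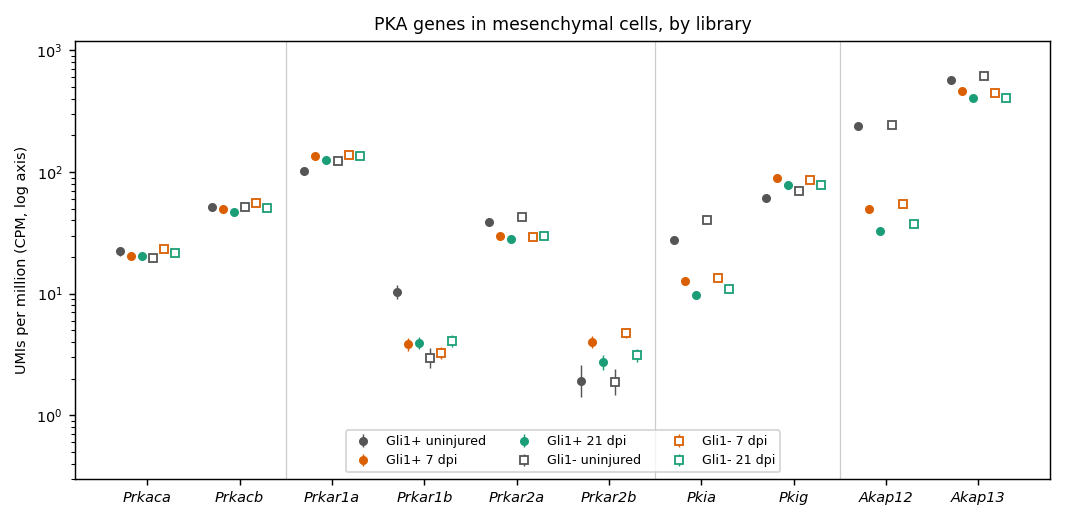
Levels of the 10 PKA genes in mesenchymal cells, in CPM on a log axis, with 1 point per library (filled, *Gli1*+; open, *Gli1*-; grey, uninjured; orange, 7 dpi; green, 21 dpi) and bars for 95% Poisson intervals. *Akap12* is at 237 and 245 CPM in uninjured tendon and at 32.8 to 54.3 CPM after injury, while *Prkacb* stays between 47.2 and 55.5 CPM.

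The contrast between injured and uninjured tendon asks how these transcripts moved with tenotomy in each sort. A gene was taken as higher or lower where its CPM differed by at least 0.58 on the log2 scale and reached 5 CPM in either library. Of the 10 members, 9 reached this level in each *Gli1*+ contrast and 8 in each *Gli1*- contrast. No member was higher, beside 20.7% and 13.1% of all genes tested in *Gli1*+ cells at 7 and 21 dpi and 21.5% and 17.8% in *Gli1*- cells. Lower were 3, 3, 2 and 3 members in these contrasts, beside 30.9%, 32.1%, 24.4% and 25.5% of all genes, a share near the background. The median log2 ratio was -0.30, -0.46, -0.18 and -0.28 over the members at level, beside -0.16, -0.28, -0.06 and -0.11 over all genes.

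*Akap12* had the lowest ratios of the 10 genes, with *Gli1*+ log2 values of -2.27 (-2.33 to -2.20) at 7 dpi and -2.85 (-2.92 to -2.78) at 21 dpi and *Gli1*- values of -2.17 (-2.22 to -2.13) and -2.71 (-2.77 to -2.65). *Pkia* followed with -1.13 (-1.27 to -0.98) and -1.49 (-1.65 to -1.34), and with -1.59 (-1.70 to -1.49) and -1.89 (-2.01 to -1.77). These 2 of the 8 members at level in all contrasts were lower in all 4, as were 12.9% of all genes, and none was higher in all 4, as were 8.39%. The 4 ratios are not independent, since the contrasts of a sort share their uninjured library. In cells of matching *Xist* state the *Akap12* ratios were -2.33 and -2.88 in *Gli1*+ cells and -2.27 in *Gli1*- cells at 7 dpi, and the *Pkia* ratios -1.24, -1.47 and -1.63. At 21 dpi the *Gli1*- contrast had too few such cells in common, with 3 *Gli1*- mesenchymal cells of 21 dpi that held Y-linked UMIs and no *Xist*.

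*Prkar1b* was lower in *Gli1*+ cells, at -1.43 (-1.68 to -1.18) and -1.40 (-1.65 to -1.15), against *Gli1*- ratios of 0.12 (-0.19 to 0.45) and 0.47 (0.15 to 0.80) on under 5 CPM. The difference between the sorts was not tested. Over all kept cells of the libraries the *Gli1*+ ratio at 7 dpi was -0.579, just short of the set fold, and that at 21 dpi was 0.10, so that neither passed it. *Prkar2a* stayed within the set fold, with *Gli1*+ ratios of -0.39 and -0.46 and *Gli1*- ratios of -0.54 and -0.52. *Prkar2b* gave 1.07 (0.61 to 1.56), 0.50 (0.03 to 1.0), 1.32 (0.96 to 1.71) and 0.72 (0.33 to 1.13) but stayed under 5 CPM in every library, and its mesenchymal levels were 2.17% to 7.27% of those in mural cells, beside medians of 0.600% to 4.76% for the 7 mural markers. Whether free mural RNA had a part in these values was not tested.

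The catalytic genes stayed close to uninjured tendon, with log2 ratios between -0.12 and 0.27 for *Prkaca* and between -0.12 and 0.11 for *Prkacb*. *Prkar1a* had ratios of 0.41 and 0.31 (*Gli1*+) and 0.15 and 0.13 (*Gli1*-), and *Pkig* of 0.55, 0.37, 0.29 and 0.16. TMM scaling moved all *Gli1*+ ratios up by 0.30 at 7 dpi and 0.46 at 21 dpi and *Gli1*- ratios by 0.10 and 0.18, which put *Prkar1a* at 0.71 and 0.77 and *Pkig* at 0.85 and 0.83 in *Gli1*+ cells, past the set fold. *Akap13* was at -0.30, -0.48, -0.47 and -0.61, and the last of these kept past the fold in 3 of 14 alternative settings. The same TMM shift left *Gli1*+ *Akap13* and *Prkar2a* near their uninjured levels. It gave -0.003 for *Akap13* at 7 dpi and 0.003 for *Prkar2a* at 21 dpi, while the *Gli1*- ratios of both genes stayed negative.

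**Figure D2:**
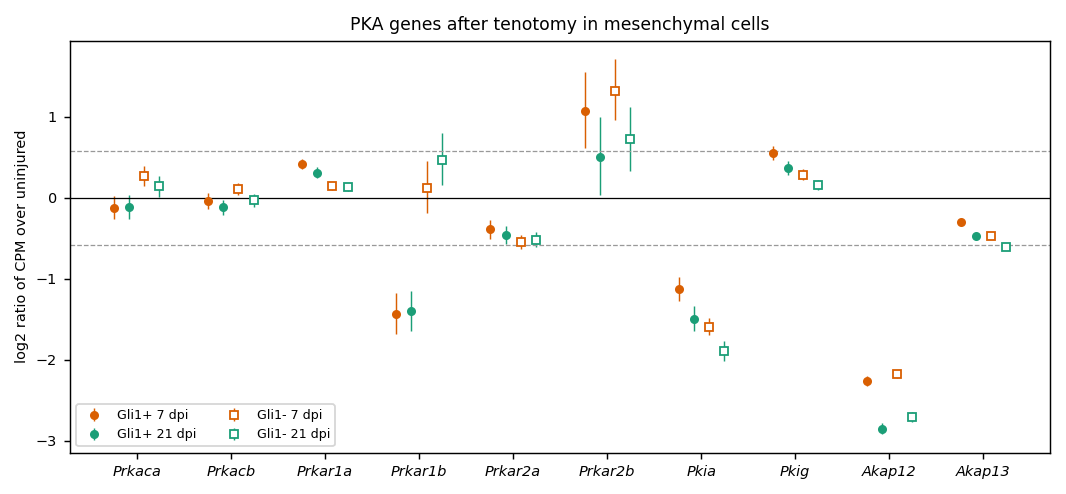
Log2 ratio of CPM over the uninjured library of the same sort for each PKA gene in mesenchymal cells (filled, *Gli1*+; open, *Gli1*-; orange, 7 dpi; green, 21 dpi), with 95% counting intervals and dashed lines at the set fold of 0.58. *Akap12* lies between -2.85 and -2.17 and *Pkia* between -1.89 and -1.13, while *Prkar1b* lies at -1.43 and -1.40 for *Gli1*+ cells. *Prkar2b*, and *Prkar1b* in *Gli1*- cells, were under 5 CPM.

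The levels also differed between subsets of mesenchymal cells. Clusters called stem cell-like were rich in *Pi16*, *Dpp4* and *Ly6a*, tenocyte-like clusters in *Tnmd* and *Fmod*, and the osteochondral cluster of 21 dpi in *Col2a1*, *Ibsp* and *Bglap*. A further large cluster (cluster 2), led by *Inmt*, *Rtn1* and *Hsd11b1*, had no subset name. *Akap12* was at 192 and 52.9 CPM in stem cell-like *Gli1*+ cells of uninjured tendon and 21 dpi (fewer than 50 cells at 7 dpi) and at 279, 156 and 74.8 CPM in those of the *Gli1*- libraries. Tenocyte-like cells had 109, 37.0 and 23.9 CPM and 74.9, 52.5 and 26.4 CPM.

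Different clusters made up these subsets at different times, so that levels within single clusters are given as well. Of the uninjured tenocyte-like cells, 704 of 748 (*Gli1*+) and 200 of 210 (*Gli1*-) lay in a cluster led by *Ptprt*, *Col22a1* and *Ptx4* (cluster 10). At 21 dpi most lay in a cluster led by *Cilp2*, *Matn4* and *Sfrp4* (cluster 1), with 4198 and 3773 cells. At 7 dpi the *Gli1*+ ones were mainly in a cluster led by *Syngr1* and *Chodl* (cluster 19), with 760 cells. Over all libraries cluster 1 had more *Ly6a* (896 against 213 CPM) and *Pi16* (474 against 35.4 CPM) than cluster 10. Its levels of *Dpp4* (8.88 against 84.5 CPM), *Tnmd* (417 against 1104 CPM) and *Fmod* (1040 against 5277 CPM) were lower. Tenocyte-like values that are lower at 21 dpi thus mostly compare cluster 1 with cluster 10, which differ in these markers. Stem cell-like cells were split between a cluster led by *Sema3e*, *Cyp2f2* and *Myoc* (cluster 6) and a cluster led by *Pcsk6*, *Pla1a* and *Dpp4* (cluster 12). Cluster 12 held most of these cells in uninjured *Gli1*- tendon (1136 cells) and cluster 6 most of them at 21 dpi (1198 and 960 cells). Most mesenchymal cells of 7 dpi carried no subset name, with 5262 *Gli1*+ cells in a cluster led by *Crabp1*, *Kif26b* and *H19* (cluster 5) and 4898 *Gli1*- cells in a cluster led by *H19*, *Ptn* and *Ccl7* (cluster 4). *Akap12* there was at 50.1 (48.3 to 52.1) and 45.0 (43.4 to 46.5) CPM. Uninjured tendon had fewer than 50 cells in either cluster, so that no ratio within them can be given. Cluster 5 lay almost only in the *Gli1*+ library of 7 dpi (5262 of 5303 cells), as did cluster 19 (760 of 771). Against the other mesenchymal clusters, cluster 5 was led by genes such as *Krt1*, *Krt16* and *Krt5*. Cluster 19 had *Krt2* and *Krt1* among its leading genes there. No batch correction was made, and the part of epidermal RNA in the split between clusters 4 and 5 was not tested.

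Within cluster 10 *Akap12* was at 114.5 CPM (106 to 123) in uninjured *Gli1*+ and 47.7 CPM (39.6 to 57.0) in *Gli1*+ cells of 21 dpi. The *Gli1*- levels there were 72.9, 42.7 and 31.9 CPM. Cluster 2 had 286 CPM (uninjured) and 129.9 CPM (21 dpi) for *Gli1*+ and 244, 115 and 143 CPM for *Gli1*-. In both clusters every injured library with enough cells was below the uninjured library of its sort. Cluster 6 had 129 and 51.9 CPM for *Gli1*+, but 93.1 (76.8 to 112), 102 (80.4 to 128) and 58.1 (53.1 to 63.4) CPM for *Gli1*-, where 7 dpi was not below uninjured tendon. In *Gli1*- cells of cluster 12 it was 306 (294 to 318), 203 (174 to 236) and 338 (291 to 390) CPM, lower at 7 dpi and not at 21 dpi. Log2 ratios within these 4 clusters ran from -1.31 to 0.14, beside -2.85 to -2.17 over all mesenchymal cells.

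The lowest mesenchymal *Akap12* levels with a subset name were in osteochondral cells, at 14.3 (*Gli1*+) and 14.6 CPM (*Gli1*-) at 21 dpi. The highest was in a cluster led by *Sorcs3*, *Unc13c* and *Grin2b*, with 1098 CPM (1043 to 1155) in 216 uninjured *Gli1*+ cells, 867 CPM in 71 *Gli1*+ cells of 21 dpi and 432 CPM in 76 uninjured *Gli1*- cells. Cluster by cluster the gene thus spanned a wider range than between uninjured and injured tendon.

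*Pkia* also differed within single clusters. In cluster 2, with 72.1% of the uninjured *Gli1*- mesenchymal cells, its *Gli1*- ratio at 7 dpi was negative but short of the set fold. Its ratios there at 21 dpi passed the fold in both sorts. It was at 34.6 and 18.8 CPM (*Gli1*+, uninjured and 21 dpi) and at 49.7, 21.4 and 20.4 CPM (*Gli1*-) in cluster 10, and at 19.1 and 5.36 CPM and at 22.1, 4.03 and 5.65 CPM in cluster 6. In *Gli1*- cells of cluster 12 it was 38.7 (34.6 to 43.2), 33.3 (22.1 to 48.1) and 30.9 (18 to 49.4) CPM, with overlapping intervals. It was all but absent from osteochondral cells, at 1.45 and 1.44 CPM, and from a cluster of 21 dpi led by *Saa3*, *Grem1* and *Mmp10*, at 1.92 and 2.48 CPM. In that same cluster *Prkar1a* reached 188 and 201 CPM, above the 102 to 123 CPM of stem cell-like, tenocyte-like and osteochondral cells of 21 dpi.

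Of the mesenchymal clusters *Prkar1b* was highest in cluster 10 in uninjured tendon of both sorts, at 20.4 CPM (17.0 to 24.3) (*Gli1*+) and 14.9 CPM (8.83 to 23.6, *Gli1*-), with overlapping intervals. Tenocyte-like cells made up 748 of the 2465 uninjured *Gli1*+ mesenchymal cells and 210 of the 5813 uninjured *Gli1*- ones. Within cluster 10 the *Gli1*+ level at 21 dpi was 8.99 CPM (5.70 to 13.5), and the *Gli1*- levels at 7 and 21 dpi were 12.7 and 13.1 CPM. Cluster 19 had 12 CPM at 7 dpi and cluster 1 had 2.25 (*Gli1*+) and 1.91 CPM (*Gli1*-) at 21 dpi. Over all tenocyte-like cells the levels were 20, 12.1 and 2.64 CPM and 16.2, 9.44 and 2.27 CPM, in the same order in both sorts. Most of these cells lay in cluster 10 in uninjured tendon and in cluster 1 at 21 dpi, so this order is not one within a single cluster. In cycling cells, led by *Hmmr*, *Tpx2* and *Birc5*, *Prkar1a* stood at 163 to 167 CPM and *Pkig* at 115 to 128 CPM in the 4 injured libraries.

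*Gli1*+ and *Gli1*- mesenchymal cells differed little in these genes at the same time. The log2 ratio of *Gli1*+ over *Gli1*- lay between -0.23 and 0.25 for all members at 7 dpi and between -0.19 and 0.01 at 21 dpi, where 4.94% and 2.03% of all genes differed by the set fold. In uninjured tendon, where 25.2% of all genes did, *Prkar1b* alone of the members passed it, at 1.80 (1.47 to 2.14). *Pkia* was next at -0.56 (-0.69 to -0.42), and *Prkar1a* stood at -0.30.

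Mural cells, the pericytes and smooth muscle of vessel walls, carried more of several PKA transcripts than mesenchymal cells. *Prkacb* was at 98.6, 182 and 192 CPM (*Gli1*+) and 155, 219 and 218 CPM (*Gli1*-), *Prkaca* at 33.6, 44 and 27.6 CPM and at 37.7, 26.8 and 29.8 CPM. Hence *Prkaca* made up 25.4%, 19.5% and 12.6% and 19.6%, 10.9% and 12% of catalytic UMIs, lower than in mesenchymal cells in each library, with an interval in uninjured *Gli1*+ cells (15.3% to 37.9%, from 63 UMIs) that held the mesenchymal share. The level of *Prkar1a* was 348, 309 and 395 CPM and at 535, 382 and 399.7 CPM, and *Prkar1b* at 63.0, 20.5 and 47.5 CPM and at 20.4, 23.2 and 49.5 CPM. *Prkar2b*, scarce in mesenchymal cells, was at 69.3, 104 and 125 CPM (*Gli1*+) and 25.9, 114 and 114 CPM (*Gli1*-), where the uninjured libraries were the lowest.

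Of these genes 5 passed the set fold over mesenchymal cells of the same library in all 6 libraries, namely *Prkacb* (log2 0.94 to 2.11), *Prkar1a* (1.20 to 2.11), *Prkar1b* (2.42 to 3.60), *Prkar2b* (3.78 to 5.53) and *Pkig* (1.05 to 1.96). Among all genes tested 7.56% were so, and 6.04% were lower in all 6, with no member among them. *Prkar2b* in all 6 libraries, and *Prkar1b* in all but uninjured *Gli1*+ tendon, reached 5 CPM only through mural cells. The mural cells numbered only 62 in the uninjured *Gli1*+ library and 172 to 987 in the others.

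At a finer resolution most mural cells, 1752 of them, fell into a cluster rich in *Kcnj8* (213 CPM) and *Abcc9* (247 CPM). Another 605 cells fell into a cluster rich in the contractile genes *Myh11* (3530 CPM) and *Acta2* (12238 CPM). Of the other mural markers *Rgs5* was higher in the *Kcnj8*-rich cluster (3901 against 2698 CPM). *Notch3* (444 against 808 CPM) and *Cspg4* (48.3 against 152 CPM) were lower there. A further cluster held 61 of the 172 mural cells of the *Gli1*+ library of 7 dpi and 1 cell of 21 dpi, with 96.6 CPM (48.2 to 173) of *Prkar2b*, 96.6 CPM of *Prkar1a* and 105 CPM of *Prkacb*. The *Kcnj8*-rich cluster had 124 CPM of *Prkar2b* and 218 CPM of *Prkacb*, against 39.6 and 132 CPM in the *Myh11*-rich cluster. For *Prkar1a* the order was the other way, with 377 CPM and 529.9 CPM. The *Kcnj8*-rich share of mural cells was 56.5%, 47.7% and 86.5% in *Gli1*+ and 20%, 73.3% and 82.5% in *Gli1*- libraries, and moved with the *Prkar2b* level of *Gli1*- mural cells. In *Gli1*+ mural cells the share was lower at 7 dpi than in uninjured tendon, whereas *Prkar2b* was higher, at 104 against 69.3 CPM. Within *Gli1*- *Kcnj8*-rich cells *Prkar2b* was at 108 (68.2 to 161), 126 (111 to 142) and 119.5 (112 to 127) CPM, with overlapping intervals. The first of these rested on 23 UMIs from 50 cells. Within *Gli1*- *Myh11*-rich cells it was at 9.44, 54.9 and 65.4 CPM. The 7 mesenchymal markers summed to 1631, 12395 and 12441 CPM and to 2081, 11945 and 13106 CPM in mural cells, higher in all 4 injured libraries, and their part in the mural values after injury was not tested.

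Over uninjured tendon, mural *Prkar2b* gave log2 ratios of 0.59 (-0.03 to 1.23), 0.86 (0.35 to 1.41), 2.14 (1.62 to 2.71) and 2.14 (1.64 to 2.68), in the order *Gli1*+ 7 and 21 dpi and *Gli1*- 7 and 21 dpi. It alone among the 10 members was higher in all 4, as were 9.11% of genes. *Prkar2a* and *Pkia* were lower in all 4, as were 9.92% of genes. In mural cells *Prkar2a* stood at 58.8, 30.8 and 34.5 CPM (*Gli1*+) and 97.4, 37.8 and 33.4 CPM (*Gli1*-). *Pkia* stood at 113, 38.1 and 23.6 CPM and at 55.8, 30.3 and 18.8 CPM, so uninjured tendon was again the highest in both sorts. Within *Gli1*- *Kcnj8*-rich cells *Pkia* was at 122, 28.8 and 17.3 CPM, whereas in *Myh11*-rich ones it was at 42.5, 38.2 and 31.6 CPM with overlapping intervals. *Akap12* had no common direction in mural cells, with log2 ratios of -0.91, -0.24, -0.15 and 0.45, and stayed at 253 to 476 CPM.

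**Figure D3:**
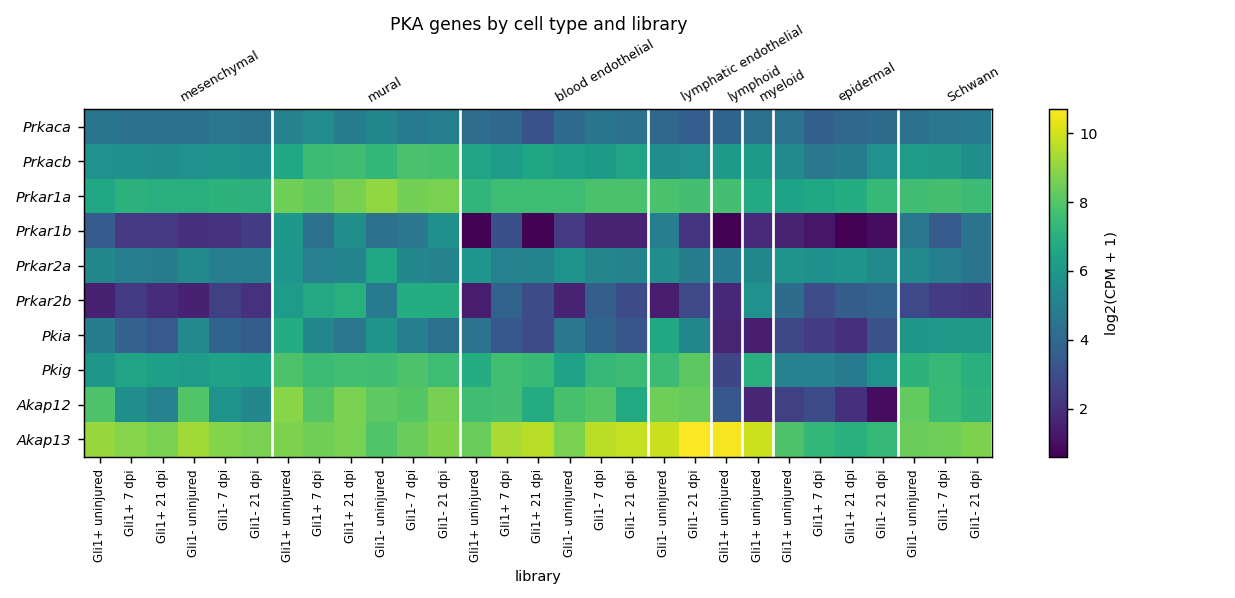
Levels of the 10 PKA genes (rows) by cell class and library (columns, those with at least 50 cells), as log2(CPM + 1) on a colour scale from dark (low) to yellow (high). Mural columns are brighter than mesenchymal ones for *Prkacb*, *Prkar1a*, *Prkar2b* and *Pkig*, lymphoid and myeloid columns are bright for *Akap13* and dark for *Akap12*.

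In blood endothelial cells *Akap13* was the most abundant of the members and was higher after injury. It stood at 332, 688 and 787 CPM (*Gli1*+) and 404, 808 and 888 CPM (*Gli1*-), with log2 ratios of 1.05 (0.86 to 1.24), 1.24 (1.10 to 1.39), 1.0 (0.93 to 1.06) and 1.13 (1.08 to 1.19). All 4 injured libraries were above both uninjured ones, whereas in mesenchymal cells all 4 lay below them in CPM. In *Gli1*+ mesenchymal cells that difference was all but lost under TMM scaling. *Pkig* was also higher after injury in endothelial cells, at 113, 201 and 170.0 CPM and at 85.2, 161 and 181 CPM. *Prkar2b* was at 1.71, 13.1 and 6.63 CPM and at 2.08, 11.7 and 6.56 CPM, and the first of these rested on 3 UMIs, for *Gli1*+ ratios of 2.94 (0.81 to 5.52) and 1.96 (0.03 to 4.44) and *Gli1*- ratios of 2.5 (1.74 to 3.30) and 1.66 (0.94 to 2.43). These 3 of the 9 members at level were higher in all 4 contrasts, as were 8.89% of genes. *Prkar2b* reached 5 CPM only through the injured libraries, where it was high, so its place in this count is not independent of the level set. The 7 mural markers summed to 1050, 737 and 153 CPM and to 1422, 652 and 219 CPM in these endothelial cells. The 7 mesenchymal markers summed to 269, 8503 and 1791 CPM and to 994, 7065 and 2801 CPM there, higher in all 4 injured libraries. The part of either cell type's RNA in these values was not tested.

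*Prkar2a* and *Pkia* were the members lower in all 4 endothelial contrasts, as were 9.53% of genes. *Prkar2a* was at 59.3, 31.9 and 35.0 CPM and at 54.9, 35.4 and 33.8 CPM. *Pkia* was at 21.1, 9.37 and 6.63 CPM and at 23.5, 13.7 and 8.99 CPM. Its *Gli1*+ values rested on 5 UMIs at 7 dpi (log2 interval -2.88 to 0.18) and 11 UMIs at 21 dpi (-2.79 to -0.67). Over whole classes *Prkar2a* and *Pkia* thus had their highest CPM in uninjured tendon in mesenchymal, mural and blood endothelial cells of both sorts. TMM scaling left little of the *Prkar2a* difference in *Gli1*+ mesenchymal cells. *Akap12* was at 190.4, 202 and 112 CPM and at 217, 252 and 107 CPM, near its uninjured level at 7 dpi and lower at 21 dpi in both sorts over all endothelial cells. No member was higher or lower than in mesenchymal cells in all 6 libraries, whereas 13.7% of genes were higher and 10.9% lower.

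Endothelial cells formed a cluster led by *Aqp7*, *Timp4* and *Gpihbp1* and a cluster led by *Selp*, *Sele* and *Fam167b*. The *Selp*-rich share was 3.72%, 90.4% and 66.1% in *Gli1*+ and 2.82%, 26.7% and 49.97% in *Gli1*- libraries and so moved with injury. *Akap13* was higher after injury within both clusters of *Gli1*- cells, with 396, 566 and 505 CPM in *Aqp7*-rich and 502, 965 and 973 CPM in *Selp*-rich cells. *Prkar2a* was at 56.5, 39.2 and 45.1 CPM in *Aqp7*-rich and at 36.0, 32.9 and 31.2 CPM in *Selp*-rich *Gli1*- cells, a smaller difference from uninjured tendon than over all endothelial cells. The *Aqp7*-rich *Gli1*+ level of this gene was 57.5 CPM (46.4 to 70.5) in uninjured tendon and 60.4 CPM (33.8 to 99.5) at 21 dpi, which was not lower. *Prkar2b* in *Aqp7*-rich *Gli1*- cells was at 1.94 (1.17 to 3.03), 5.06 (2.18 to 9.97) and 3.47 (1.27 to 7.56) CPM, with overlapping intervals from 19, 8 and 6 UMIs. *Selp*-rich *Gli1*- cells had 3.73 (0.768 to 10.9), 16.0 (11.4 to 21.9) and 7.25 (5.48 to 9.42) CPM, the first from 3 UMIs. There the intervals of uninjured tendon and 7 dpi did not overlap. *Pkia* was at 23.3, 19.6 and 19.1 CPM in *Aqp7*-rich *Gli1*- cells, with overlapping intervals, and at 20 and 28.2 CPM in those of uninjured and 21 dpi *Gli1*+ tendon. In *Selp*-rich *Gli1*- cells it was 26.1, 9.86 and 6.73 CPM. *Akap12* was not lower at 21 dpi in *Aqp7*-rich *Gli1*- cells, at 205, 261 and 208 CPM. The *Gli1*+ values for this cluster were 198 CPM (177 to 221) in uninjured tendon and 189 CPM (139 to 251.5) at 21 dpi. In *Selp*-rich *Gli1*- cells it was 364, 246 and 84.0 CPM.

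**Figure D4:**
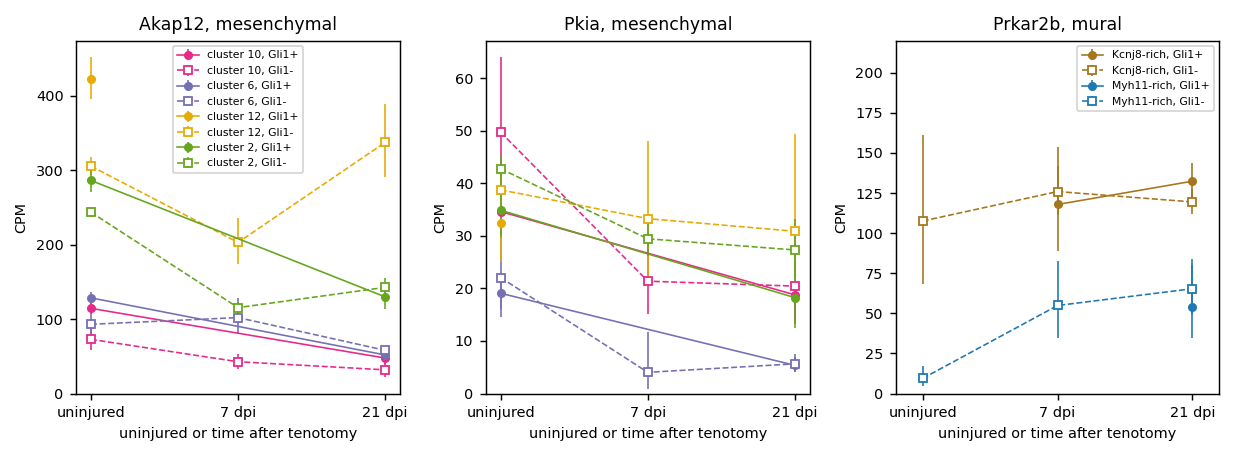
*Akap12* and *Pkia* in 4 single clusters of mesenchymal cells (10, tenocyte-like; 6 and 12, stem cell-like; 2, *Inmt*-rich) and *Prkar2b* in the finer mural clusters, in CPM, for uninjured tendon, 7 dpi and 21 dpi (filled, *Gli1*+; open, *Gli1*-), with 95% Poisson intervals. Lines join separate libraries, and conditions with fewer than 50 cells are left out. *Akap12* is highest in uninjured tendon in clusters 10 and 2, while in *Gli1*- cells of cluster 12 it is 306, 203 and 338 CPM. *Prkar2b* is at 108 to 132 CPM in *Kcnj8*-rich mural cells, with overlapping intervals.

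Immune cells could be described in uninjured *Gli1*+ tendon only. In lymphoid cells *Prkacb* was at 67.9 CPM (64.8 to 71.2) and *Prkaca* at 13.7 CPM (12.3 to 15.2), or 16.8% of catalytic UMIs. *Prkar1a* was at 206 CPM (201 to 212) and made type I 87.9% of regulatory UMIs, above the 73.2% in mesenchymal cells of the same library. The inhibitors were scarce, *Pkig* at 5.64 CPM and *Pkia* at 2.22 CPM, and their sum per catalytic UMI was 0.0963 against 1.20 in mesenchymal cells. *Akap13*, first described as a lymphoid blast crisis oncogene (Lbc), stood at 1506 CPM (1491 to 1521).

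Myeloid cells, led by macrophage genes such as *C1qc* and *Cd163*, shared the high *Akap13* level, at 972 CPM (939.9 to 1005), but had another set of regulatory subunits. *Prkar2b* was at 50.9 CPM (43.8 to 58.8) and took 25.5% of regulatory UMIs, so that type I made up only 55.2%. *Prkar1a* was at 108 CPM (97.2 to 119), near its mesenchymal level. *Prkacb* at 68.1 CPM again exceeded *Prkaca* at 19.2 CPM. *Akap12* was low in both classes, with 9.47 CPM (8.33 to 10.7) in lymphoid and 2.22 CPM (0.960 to 4.38, from 8 UMIs) in myeloid cells beside 237 CPM in mesenchymal cells of that library.

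Against mesenchymal cells of that library, 2 members were higher (*Prkar1a* and *Akap13*) and 5 lower (*Prkaca*, *Prkar1b*, *Pkia*, *Pkig* and *Akap12*) in lymphoid cells, where 26.9% of all genes were higher and 39.9% lower. In myeloid cells 3 were higher (*Prkar2b*, *Pkig* and *Akap13*) and 3 lower (*Prkar1b*, *Pkia* and *Akap12*), with 25.1% and 33.6% of all genes. Log2 ratios were 1.41 (1.38 to 1.44) and 0.78 (0.73 to 0.83) for *Akap13*, and 4.73 (4.25 to 5.23) for *Prkar2b* in myeloid cells. This *Prkar2b* ratio reached 5 CPM only through myeloid cells.

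Epidermal cells, which numbered at least 50 in 4 libraries, had *Prkar2a* at 55.9, 50.2 and 55.3 CPM in *Gli1*+ libraries and at 42.0 CPM in the *Gli1*- library of 21 dpi. *Prkar2b* was higher than in mesenchymal cells in all 4 libraries (6.94 to 17.0 CPM, log2 0.79 to 3.15), as were 15.2% of genes. It reached 5 CPM only through epidermal cells. *Akap12* (0.954 to 6.77 CPM) and *Akap13* (129 to 237 CPM) were lower in all 4, as were 19.7% of genes. *Pkia* was at 61 to 66.7 CPM in Schwann cells of the 3 *Gli1*- libraries, a class that also held the myeloid gene *Lyz2* at 1824 CPM, and at 97.9 and 36.7 CPM in lymphatic endothelial cells of *Gli1*- uninjured tendon and 21 dpi. *Akap13* reached its highest level of any class in lymphatic endothelial cells of 21 dpi, at 1648 CPM (1575 to 1724) beside 943 CPM (868 to 1024) in uninjured tendon.

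**Figure D5:**
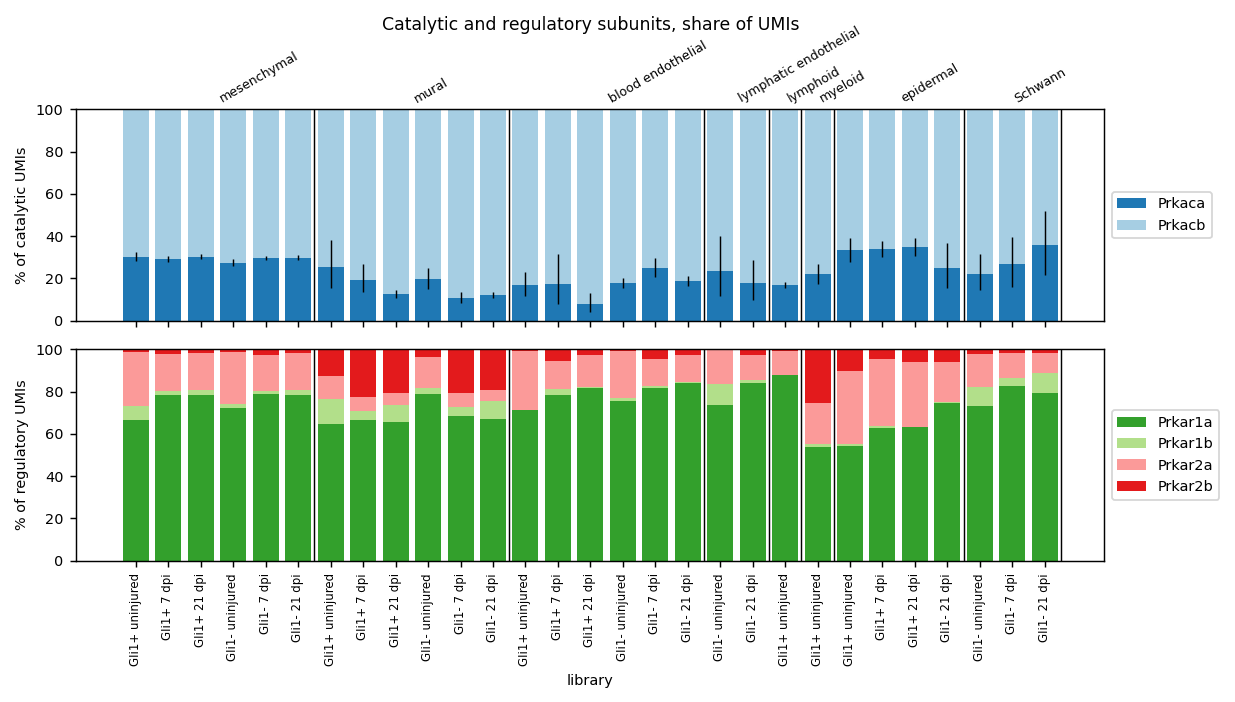
Shares of *Prkaca* and *Prkacb* in catalytic UMIs (top, with 95% binomial intervals of the *Prkaca* share) and of the 4 regulatory genes in regulatory UMIs (bottom), in percent, by cell class and library. *Prkacb* is the larger part in every column, and *Prkar1a* the largest regulatory part in every column. *Prkar2b* is broad in myeloid cells and in all mural columns but that of uninjured *Gli1*- tendon.

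Promoter sequence was looked up for the regulatory and catalytic genes whose levels were most alike, since cAMP response elements (CRE, TGACGTCA) are a known entry point of PKA signalling into transcription. RefSeq promoter windows of the mouse build GRCm38.p6, 300 bases from 250 before to 50 after a transcript start, were matched for 8 of the 10 members, with 23 windows. Across the cell classes and libraries with enough cells (29 points, which share libraries and depth), *Prkar1a* and *Prkacb* had a Pearson r of 0.85 of log2(CPM + 1). Of 9832 genes compared, *Prkar1a* was the most like *Prkacb* (0.846), nearly tied with *Higd1b* (0.845), a leading gene of the mural cluster. A *Prkar1a* window (chr11:109650699-109650998, plus strand) and a *Prkacb* window (chr3:146812897-146813196, minus strand) are shown 5′ to 3′ with the CRE or its core, TGACG or CGTCA on either strand, in capitals.
Prkar1a: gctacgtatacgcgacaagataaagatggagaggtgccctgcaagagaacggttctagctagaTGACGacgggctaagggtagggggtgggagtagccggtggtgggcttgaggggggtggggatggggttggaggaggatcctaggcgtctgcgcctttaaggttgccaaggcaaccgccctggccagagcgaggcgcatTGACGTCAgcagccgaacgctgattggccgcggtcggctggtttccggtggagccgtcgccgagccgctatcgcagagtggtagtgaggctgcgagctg
Prkacb: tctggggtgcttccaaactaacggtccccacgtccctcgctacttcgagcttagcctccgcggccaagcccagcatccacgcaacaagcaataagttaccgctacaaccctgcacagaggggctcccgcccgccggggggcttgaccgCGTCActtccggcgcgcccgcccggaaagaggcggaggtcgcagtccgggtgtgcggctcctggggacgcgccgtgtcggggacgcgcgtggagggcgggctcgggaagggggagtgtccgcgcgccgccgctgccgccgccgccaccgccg
The full CRE of *Prkar1a* begins at position -49 from the start, and the core of *Prkacb* at position -102. Both printed windows are ones that hold the motif. The other *Prkacb* windows, chr3:146770189-146770488 and chr3:146781367-146781666, held no core. Some *Prkar1a* windows, such as chr11:109650292-109650591 and chr11:109651092-109651391, held none either. The full CRE was found in 1.79% of 32851 promoter windows and, among members, in 2 overlapping windows of *Prkar1a* only. The core, which the full CRE contains on both strands, was found in 20.8% of all windows and in 8 of the 23 member windows. Counts from the 3′ end do not show which start was used.

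Each member was also set beside the genes with the most similar levels over the same 29 points. *Akap12* was most like *Filip1* (r = 0.95) and *Gnb4* (0.94), and its r with *Pkia* was 0.80. *Pkia* was most like *Map4* (0.90) and *Tril* (0.89), *Pkig* like *Sash1* and *Mtus1* (0.91 each), and *Akap13* like *Dennd4a* (0.90) and *Psen2* (0.86). *Prkar1a* was most like the mural genes *Gm13889* (0.91) and *Gucy1a1* (0.89), *Prkar1b* like *Egflam* (0.89) and *Prkar2b* like *Nab1* (0.86). The weakest were *Prkaca* with *Kcnab1* (0.83) and *Prkar2a* with *Cox6a1* (0.77).

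The rest of the pathway was read from lists of other PKA genes, other anchors, cAMP synthesis and breakdown, and cAMP receivers and PKA targets, in mesenchymal cells. *Prkx*, which encodes a catalytic subunit related to PKA, stood at 52.1, 17.0 and 18.6 CPM (*Gli1*+) and 45.2, 14.3 and 18.2 CPM (*Gli1*-). Unlike *Prkaca* and *Prkacb*, it was lower in all 4 contrasts, with log2 ratios of -1.62, -1.49, -1.66 and -1.31.

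Of 20 other anchors 19 were found and 14 or 15 reached the set level. Higher were 1, 1, 4 and 4 of them and lower 7, 6, 5 and 3, in the order *Gli1*+ 7 and 21 dpi and *Gli1*- 7 and 21 dpi. Of all genes tested, 20.7%, 13.1%, 21.5% and 17.8% were higher and 30.9%, 32.1%, 24.4% and 25.5% lower in these contrasts. *Akap8l*, a nuclear anchor, was at log2 ratios of -1.34 (*Gli1*+) and -0.89 (*Gli1*-) at 7 dpi, *Nbea* at -0.94 and -1.13 at 21 dpi, and *Akap7* at -1.04 and -0.90 at 7 dpi. *Akap6*, an anchor of the nuclear envelope of muscle cells, was higher at 7 dpi, at 1.96 and 1.06.

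Of 20 genes of cAMP synthesis and breakdown 16 to 18 reached the level, with 3, 2, 4 and 5 higher and 8, 4, 6 and 6 lower, beside 20.7%, 13.1%, 21.5% and 17.8% higher and 30.9%, 32.1%, 24.4% and 25.5% lower over all genes. *Pde4d*, a cAMP phosphodiesterase, stood at 193, 390 and 576 CPM (*Gli1*+) and 96.0, 331 and 603 CPM (*Gli1*-), so that all 4 injured libraries exceeded both uninjured ones. *Pde3b* was also higher at 7 dpi, at 0.63 and 1.69, whereas *Pde4c* was at -3.06 and -1.63 and *Adcy9*, an adenylyl cyclase, at -1.36 and -1.37 at that time.

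Of 11 other cAMP receivers and targets 8 reached the level. None was higher, beside 20.7%, 13.1%, 21.5% and 17.8% of all genes higher. Lower were 4, 5, 4 and 5, beside 30.9%, 32.1%, 24.4% and 25.5% of all genes lower. *Rapgef3*, which encodes the cAMP-activated exchange factor Epac1, had log2 ratios of -2.69 and -2.44 (*Gli1*+) and -2.39 and -2.41 (*Gli1*-). The CREB coactivators *Crtc3* and *Crtc2* were at -1.52 and -1.59 (*Gli1*+) and -1.57 and -1.44 (*Gli1*-) at 7 dpi, and *Creb1* itself at -0.79 and -0.59 at 21 dpi. The list medians were -1.03, -0.97, -0.86 and -0.78, beside -0.16, -0.28, -0.06 and -0.11 over all genes.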

How the data were processed

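Cells of 6 FACS-sorted libraries (Chromium 3′ chemistry) were sequenced, and the authors deposited raw UMI counts per gene and barcode, made with Cell Ranger, STAR and build mm10. The submitters' notes name Cell Ranger 3.1.0, whereas the matrix headers name a later release, and the annotation release is not given in the sources used here. The deposited matrices held 8236 to 16437 barcodes per library. No deposited normalised table was used, and 0 columns were left unmapped.

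Cells were kept with the limits of the study's methods: at least 200 genes and 1000 UMIs, a log10 ratio of genes to UMIs of at least 0.7, and at most 5% mitochondrial and 5% hemoglobin UMIs. Likely doublets were removed with Scrublet in scanpy 1.11.5, in place of the caller named in the methods, at 0.8% per 1000 cells (451 to 1160 per library). The libraries were clustered together without batch correction (2000 variable genes, 30 principal components, 20 neighbours, Leiden resolution 0.5, leidenalg 0.10.2). A cluster was named where at least 3 markers of a list, with a mean log2 excess of at least 2 (at least 1 for mesenchymal), stood out. These limits, and the finer mural and endothelial clusters, were set after seeing the data, and the names are rebuilt and not the authors'.

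UMI counts were summed per class and library and scaled to CPM, with Poisson and binomial intervals at the 95% level (scipy 1.17.1, numpy 2.4.6, Python 3.11.15). Classes under 50 cells were left out. The fold of 0.58 on the log2 scale and the level of 5 CPM were applied to each ratio. No test was made between conditions, each of which was 1 library. Likeness was computed over classes with at least 200000 UMIs and genes with a mean of at least 10 CPM, with a pseudocount of 1.

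All 10 members were described. From the lists of other pathway genes, up to 4 were named that passed the fold in 1 direction in both sorts at the same time, largest first. Members, lists and markers were chosen with earlier results of these data known. The alternatives were TMM scaling (edgeR 4.0.16, R 4.3.3), other cell typing, Leiden resolution 1, doublets kept, cells thinned to 2000 UMIs, cells of 1 *Xist* state, the whole library, the mean over cells, a total without mitochondrial, ribosomal and *Cntn5* UMIs, other thresholds, and single subsets or clusters. The subset and cluster alternatives and those of the cell class contrasts were added after seeing the data.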

Additional observations from a re-analysis of the deposited data

Results flagged for a closer look

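These results are listed because the log2 ratio over uninjured tendon in mesenchymal cells had opposite signs in *Gli1*+ and *Gli1*- cells. With 1 library per condition the difference between the sorts was not tested. For *Prkar1b* the *Gli1*+ minus *Gli1*- difference was -1.55 at 7 dpi (-1.43 against 0.12) and -1.87 at 21 dpi (-1.40 against 0.47). Tenocyte-like cells made up 748 of the 2465 uninjured *Gli1*+ cells and 210 of the 5813 uninjured *Gli1*- cells, and their part in the difference was not tested. *Prkar1b* was higher in them than over all mesenchymal cells in uninjured tendon and at 7 dpi, and not at 21 dpi. For *Prkaca* the difference was -0.39 at 7 dpi (-0.12 against 0.27) and -0.26 at 21 dpi (-0.12 against 0.14), and for *Prkacb* it was -0.15 at 7 dpi (-0.04 against 0.11). In the main setting all ratios of the catalytic genes stayed within the set fold. Of 15 alternatives for *Prkaca* in *Gli1*- cells at 7 dpi, 1 passed it (0.76). Under TMM scaling the *Gli1*+ ratios of both genes became positive.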

How the results depend on the processing

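Of 144 alternative values for the ratios past the fold, 123 kept their direction and the fold and 4 changed sign. The sign changed for *Akap12* in *Gli1*- cells of cluster 6 at 7 dpi (0.13) and of cluster 12 at 21 dpi (0.14), for *Prkar1b* in all cells of the *Gli1*+ library at 21 dpi (0.10), and for *Akap13* in *Gli1*- cells of cluster 2 at 21 dpi (0.34). *Akap12* kept the fold in 10 of 10 alternatives at 7 dpi and 14 of 14 at 21 dpi in *Gli1*+ cells, and in 13 of 15 and 13 of 14 in *Gli1*- cells. *Pkia* fell short over whole *Gli1*+ libraries (-0.33 and -0.54). In *Gli1*- cells it fell short in cluster 2 at 7 dpi (-0.54) and in cluster 12 (-0.22 and -0.33). The *Prkaca* share was 32.5% (uninjured *Gli1*+), 29.7% (uninjured *Gli1*-) and 28.3% (*Gli1*-, 21 dpi) in thinned cells, and 28.5% and 26.4% at 21 dpi with cells typed by their own markers. The type I share was 79.9% and 80.2% at 21 dpi with such typing, and 79.8% and 78.2% in thinned *Gli1*- cells of 7 and 21 dpi. Regulatory UMIs per catalytic UMI were 2.28 in uninjured *Gli1*+ cells with Y-linked UMIs and 2.13 in thinned *Gli1*+ cells of 21 dpi. TMM scaling gave 5 members past the fold in place of 3 at each *Gli1*+ time, beside 51.1% and 44% of all genes (51.6% and 45.2% without it). With a fold of log2 1, 13, 10, 15 and 14 pathway genes of the 41, 40, 41 and 42 at level passed it in place of 24, 19, 24 and 24, beside 28.5%, 20.4%, 24.3% and 22.4% of all genes (51.6%, 45.2%, 45.9% and 43.3% at the set fold). The genes higher in mural cells stayed 5, and those higher in blood endothelial cells 0, in all 5 alternatives. The cause of these shifts was not tested. The labels number no replicates, and the sorts were not fitted as pairs by time point. Depth limited *Prkar2b* and *Prkar1b*, at few CPM, and classes of few cells.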
